A study of Homo sapiens with 10 samples.

Results

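A set of 10 genes of the actin-based contractile apparatus (TPM1, TPM2, TPM3, TPM4, MYL6, MYL9, ACTN1, CALD1, TAGLN and VCL) was followed at the level of single transcripts in ovarian cancer cell lines. They were taken by gene name from the deposited transcript annotation, which gave 10 of 57110 genes and 62 of 99493 transcripts, and none of the 10 shares its identifier with an overlapping gene. The series holds 10 nanopore long-read libraries of total RNA from 7 human ovarian cancer cell lines, made to benchmark a transcript quantification package. Each of COV362, COV504, SK-OV-3, OVMANA, OVTOKO and OVKATE has 1 PromethION library, while IGROV-1 has 2 from that instrument and 2 from a MinION, a smaller device, with the numbers 1 and 2 on either. No line was treated or engineered, per the labels, and no label says whether the IGROV-1 libraries came from separate cultures, so p-values measure only the spread between these libraries, which may be technical. The other lines have no replicate of their own and are assumed to vary like IGROV-1.

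Actin filaments in most cells are wrapped by tropomyosins, coiled-coil proteins that lie end to end along the filament and set which motors and binding proteins can reach it. The human genes TPM1 to TPM4 each give several proteins. In TPM1, TPM3 and TPM4 a start at the first promoter gives a long form, typical of muscle and of stress fibres, and a start at an internal promoter gives a short form, whereas TPM2 is known for long forms. Exons that exclude each other, at different points along the gene, add further variants. Myosin II pulls on these filaments through a heavy chain that carries an essential light chain, which MYL6 encodes, and a regulatory light chain, of which MYL9 encodes a smooth-muscle type. Caldesmon (CALD1) and transgelin (TAGLN) bind actin and are abundant in smooth muscle, alpha-actinin 1 (ACTN1) crosslinks filaments, and vinculin (VCL) couples them to adhesions.

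The exons on which the differences below turn are printed first, from GRCh38 with the exon limits of GENCODE 29. The long and short forms of TPM1 (chromosome 15, plus strand) begin with different coding exons, shown because their balance differed most between lines. The first is the coding part of the first exon of the long transcript TPM1-206, chr15:63042830-63042943, and the other that of the short transcript TPM1-208, chr15:63048576-63048707, with the start codon in capitals.
TPM1 long first coding exon: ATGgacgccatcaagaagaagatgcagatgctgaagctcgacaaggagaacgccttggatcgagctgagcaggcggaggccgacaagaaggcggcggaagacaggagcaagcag
TPM1 short first coding exon: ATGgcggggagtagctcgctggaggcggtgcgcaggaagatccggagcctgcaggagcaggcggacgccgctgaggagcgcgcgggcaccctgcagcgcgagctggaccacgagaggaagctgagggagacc

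Long TPM1 transcripts then hold 1 of 2 exons of 126 nt, chr15:63043706-63043831 or chr15:63044027-63044152, which match at 62 of 126 positions (49.2%). One annotated transcript, TPM1-205, holds both. Capitals mark the bases that differ between the members of a pair, here and in the pairs that follow.
TPM1 126-nt exon, first copy: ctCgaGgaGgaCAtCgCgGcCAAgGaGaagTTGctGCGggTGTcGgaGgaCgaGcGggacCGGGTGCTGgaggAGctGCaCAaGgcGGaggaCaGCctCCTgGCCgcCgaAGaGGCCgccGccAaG
TPM1 126-nt exon, second copy: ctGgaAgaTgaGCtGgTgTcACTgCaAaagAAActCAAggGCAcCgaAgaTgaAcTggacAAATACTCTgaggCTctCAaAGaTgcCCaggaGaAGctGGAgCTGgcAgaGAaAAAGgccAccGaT

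Both long and short transcripts hold 1 of 2 later exons of 76 nt, chr15:63061198-63061273 or chr15:63061713-63061788, identical at 43 of 76 positions (56.6%). TPM2 (chromosome 9, minus strand) has a pair of the same length, chr9:35685064-35685139 and, farther downstream in the transcript's direction, chr9:35684732-35684807, identical at 40 of 76 positions (52.6%). No annotated transcript of either gene holds both members of its 76-nt pair.
TPM1 76-nt exon, first copy: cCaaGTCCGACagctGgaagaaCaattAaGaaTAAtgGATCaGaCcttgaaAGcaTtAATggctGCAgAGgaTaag
TPM1 76-nt exon, second copy: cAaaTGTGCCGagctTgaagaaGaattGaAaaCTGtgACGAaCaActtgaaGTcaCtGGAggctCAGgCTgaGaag
TPM2 76-nt exon, upstream copy: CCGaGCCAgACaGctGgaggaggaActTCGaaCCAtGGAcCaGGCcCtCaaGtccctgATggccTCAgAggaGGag
TPM2 76-nt exon, downstream copy: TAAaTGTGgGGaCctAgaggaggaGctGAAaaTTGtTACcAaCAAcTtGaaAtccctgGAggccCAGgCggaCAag

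Of the other members, MYL6, CALD1, VCL and MYL9 have an optional exon whose inclusion ranged over more than 10 points, and those of the first 3 are printed. MYL6 has a 45-nt exon (chr12:56160626-56160670) that ends the reading frame. Only its coding bases are shown, with the stop codon in capitals. CALD1 has a 78-nt coding exon (chr7:134935688-134935765), and VCL has a 204-nt coding exon (chr10:74111909-74112112), which distinguishes metavinculin, the larger vinculin of muscle, from vinculin. All 3 lie on the plus strand, and the CALD1 and VCL exons have no capitals.
MYL6 45-nt exon, coding bases: cgtttgtgaggcatatcctgtcggggTGA
CALD1 78-nt exon: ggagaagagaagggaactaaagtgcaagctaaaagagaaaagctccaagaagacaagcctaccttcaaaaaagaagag
VCL 204-nt exon: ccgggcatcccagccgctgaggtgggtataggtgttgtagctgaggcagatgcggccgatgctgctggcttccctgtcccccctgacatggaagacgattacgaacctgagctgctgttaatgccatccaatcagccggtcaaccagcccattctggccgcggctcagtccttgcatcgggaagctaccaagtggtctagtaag

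In GRCh38 the genes lie apart from each other, and the deposited annotation divides the 62 transcripts among them unevenly. On the plus strand are TPM1 (chr15:63042632-63071915, 14 transcripts), TPM4 (chr19:16067507-16103005, 2 transcripts), MYL6 (chr12:56158161-56163008, 12 transcripts) and MYL9 (chr20:36541484-36551447, 2 transcripts). The same strand holds CALD1 (chr7:134744252-134970728, 7 transcripts), TAGLN (chr11:117199321-117204778, 3 transcripts) and VCL (chr10:73998114-74121363, 2 transcripts). On the minus strand are TPM2 (chr9:35681992-35691020, 4 transcripts), TPM3 (chr1:154155304-154192211, 11 transcripts) and ACTN1 (chr14:68874143-68979440, 5 transcripts).

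Library totals lay between 1729782 and 3666224 counts, and the 10 genes held 6461 to 16868 of them, or 0.345% to 0.521% of a library. Levels are given as CPM, the gene's share of the library's counts, scaled by the same factor in every library. They are not divided by transcript length, so levels are compared between libraries and never between genes. Fold changes come from edgeR with TMM factors, so they can differ from ratios of CPM, also in the order of the lines. In bulk RNA, fewer cells with a transcript and less of it in each cell cannot be told apart. A count of 0 allows up to 3 counts, which is 0.82 to 1.73 CPM, and this floor and all intervals cover counting error only. Of 4 markers of ovarian and Müllerian carcinoma, only PAX8 was present in all 7 lines, at 84.1 to 340 CPM. WT1 had no count in OVMANA, OVTOKO, SK-OV-3, COV504 or IGROV-1 and 76.2 CPM in OVKATE. MUC16 had none in OVTOKO and SK-OV-3. MSLN had none in OVTOKO or in IGROV-1 on the PromethION, and 310 CPM in OVKATE. Of the 5 smooth muscle markers, MYH11, DES and CNN1 were at 0 or under 1 CPM in every line, and the 5 summed to between 5.44 and 34.1 CPM. Of the 5 epithelial markers, IGROV-1 on the PromethION had CDH1 at 0, EPCAM at 0.642 and KRT8 at 5.78 CPM, the lowest of the 7 lines for each. Its KRT18, at 652 CPM, and KRT19, at 158 CPM, lay within the range of the other lines. OVTOKO was also low in EPCAM (8.67 CPM), CDH1 (2.31) and KRT19 (0.578), with KRT8 at 134 and KRT18 at 314 CPM. CDH1 was low in COV362 (1.57 CPM) and SK-OV-3 (5.06 CPM) too.

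TPM1 was highest in IGROV-1. Its level was 1225 and 1817 CPM in the PromethION libraries of IGROV-1 (1521 ± 419, SD, n = 2) and 1260 and 2015 CPM in the MinION libraries. In the other lines it was 574 CPM in COV504, 379 in OVMANA, 307 in COV362, 253 in OVTOKO, 214 in SK-OV-3 and 185 in OVKATE. Every IGROV-1 library lay above every other library, and TPM1 was lower in 6 of 6 lines in edgeR's quasi-likelihood test against IGROV-1 on the PromethION. The log2 fold change ran from -1.48 in COV504 (SE 0.31, edgeR adjusted p = 0.0051) to -3.34 in OVKATE (SE 0.35, edgeR adjusted p = 0.00012). In the order of the 7 lines, the step from IGROV-1 to COV504 passed the test, and the other 5 steps between neighbours, log2 differences of 0.24 to 0.55, did not.

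TPM2, whose annotated transcripts in these data are all long forms, was near absent from 3 lines. It had 1.1 CPM in OVMANA, 7.9 in OVKATE, and 8.1 and 7.3 in the IGROV-1 PromethION libraries, with 4.4 and 6.8 on the MinION. OVTOKO had 299 CPM, SK-OV-3 352, COV362 209 and COV504 252. These 4 lines, grouped here by their TPM2 level, were higher than IGROV-1 by log2 5.35, 5.27, 4.79 and 4.94 (SE 0.21 each, edgeR adjusted p = 1.9e-06 to 3e-06). OVMANA had 2 counts against 36 in both IGROV-1 libraries, a rate 7.21-fold lower with an exact 95% counting interval of 1.86 to 61.9. That difference passed in edgeR (adjusted p = 0.01) and did not with DESeq2 (adjusted p = 0.1). No step between neighbours among the 4 high lines passed the test.

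TPM3 and TPM4, which give mainly short forms in cells outside muscle, varied in their own ways. TPM3 lay within 2.16-fold over the lines: 518 CPM in COV504, 510 in OVKATE, 439 in COV362, 360 in OVMANA, 349 in SK-OV-3, 292 and 249 in IGROV-1 on the PromethION (350 and 345 on the MinION), and 240 in OVTOKO. It was higher than in IGROV-1 in COV504 (log2 0.86, SE 0.16, edgeR adjusted p = 0.0031), COV362 (0.74, 0.16, edgeR adjusted p = 0.0066) and OVKATE (0.61, 0.16, edgeR adjusted p = 0.013), the last lost without IGROV-1 PromethION library 2 (edgeR adjusted p = 0.089) and with DESeq2 (adjusted p = 0.078). OVMANA was not called (log2 0.47, edgeR adjusted p = 0.053) but passed with RLE size factors and with a filter at 10 CPM (edgeR adjusted p = 0.032 and 0.039). None of the 6 steps between neighbouring lines passed the test.

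TPM4 was lowest in OVMANA, at 92.4 CPM, against 753 CPM in COV504, 728 in OVKATE, 677 in SK-OV-3, 665 in COV362 and 329 in OVTOKO, with 317 and 372 in IGROV-1 on the PromethION and 375 and 496 on the MinION. OVMANA was lower than IGROV-1 by log2 -1.83 (SE 0.22, edgeR adjusted p = 0.00036). COV504, COV362, OVKATE and SK-OV-3 were higher by log2 1.05, 0.99, 0.78 and 0.75 (SE 0.18 each, edgeR adjusted p = 0.0021 to 0.011), and OVTOKO stood at log2 0.01 (SE 0.19). In the order of the lines, the steps from COV362 to IGROV-1 and from OVTOKO to OVMANA passed the test and the other 4 did not.

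MYL6, the essential light chain, was lowest in IGROV-1, with 1224 and 1123 CPM on the PromethION and 1363 and 1285 on the MinION, and all 6 other lines lay above these 4 libraries. OVKATE had 2564 CPM, OVTOKO 2354, OVMANA 2018, SK-OV-3 1884, COV362 1794 and COV504 1538. The difference passed in OVTOKO (log2 1.08, SE 0.16, edgeR adjusted p = 0.0013), OVMANA (0.84), OVKATE (0.83) and COV362 (0.65, edgeR adjusted p = 0.011), and that of COV362 was lost without IGROV-1 PromethION library 2 (edgeR adjusted p = 0.09). SK-OV-3, at log2 0.45, was at the threshold (edgeR adjusted p = 0.051) and passed under 4 of 9 alternatives, such as without IGROV-1 MinION library 2 (log2 0.52, edgeR adjusted p = 0.049), while COV504, at log2 0.31, did not pass.

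MYL9, the smooth-muscle regulatory light chain, spanned the whole range from no count to over 100 CPM. It had 122 and 167 CPM in IGROV-1 on the PromethION, 132 and 197 on the MinION, and 120 CPM in OVKATE. COV504 had 22.7 CPM, COV362 13.7 and OVMANA 2.7 (5 counts), and no count fell on it in OVTOKO or SK-OV-3. Against the mean of 144.4 CPM in IGROV-1, the 0 counts place it at least 83.3-fold lower in OVTOKO and at least 95-fold lower in SK-OV-3. It was also lower in OVMANA (log2 -5.67, SE 0.49), COV362 (-3.35, SE 0.35) and COV504 (-2.75, SE 0.33, edgeR adjusted p = 0.00031). OVKATE stood at log2 -0.57 (SE 0.26, edgeR adjusted p = 0.1), and passed without IGROV-1 PromethION library 1 (log2 -0.78, edgeR adjusted p = 0.0053).

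TAGLN, an early smooth-muscle marker, was scarce throughout. SK-OV-3 had 16.7 CPM (33 counts) and COV504 12.9 CPM (29 counts), IGROV-1 had 0.9 and 5.2 CPM on the PromethION and 3.5 and 9.3 on the MinION, OVTOKO had 2.9, OVKATE and COV362 had 1 count each, and OVMANA had none. The 2 PromethION libraries of IGROV-1 themselves held 2 and 12 counts. SK-OV-3 was called higher (log2 2.23, SE 0.74, edgeR adjusted p = 0.04), but not without either MinION library of IGROV-1 (edgeR adjusted p = 0.1 and 0.079) with DESeq2 (adjusted p = 0.49), with no filter (edgeR adjusted p = 0.076) or with the PromethION libraries only (0.07). COV504 was not called (log2 2.01, SE 0.76, edgeR adjusted p = 0.062), yet passed without IGROV-1 PromethION library 2 (edgeR adjusted p = 4.2e-05). Without PromethION library 1, which held the 2 counts, OVMANA, OVKATE and COV362 were called lower instead (edgeR adjusted p = 0.0031, 0.0056 and 0.0067). The differences of TAGLN from IGROV-1 thus rested on which libraries entered.

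CALD1 was highest in OVMANA, at 356 CPM, and in IGROV-1, at 285 and 364 CPM on the PromethION and 304 and 434 on the MinION. COV504 had 246 CPM, OVKATE 148, OVTOKO 143, COV362 107 and SK-OV-3 65.8. SK-OV-3 was lower than IGROV-1 by log2 -2.53 (SE 0.26, edgeR adjusted p = 0.00018), COV362 by -1.56 (SE 0.24), OVKATE by -1.43 (SE 0.24) and OVTOKO by -1.11 (SE 0.24, edgeR adjusted p = 0.0085). OVMANA stood at log2 0.2 (SE 0.22) and was not called. COV504 did not pass (log2 -0.48, edgeR adjusted p = 0.12) unless IGROV-1 PromethION library 1 was left out (log2 -0.65, edgeR adjusted p = 0.024).

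ACTN1, the crosslinker, was highest in SK-OV-3, at 260 CPM, and lowest in COV362, at 38.4 CPM. OVTOKO had 176 CPM, OVMANA and OVKATE 121 each and COV504 104, and IGROV-1 had 77.3 and 76.9 on the PromethION and 97.6 and 112 on the MinION. Against IGROV-1 the log2 fold change was 1.52 in SK-OV-3 (SE 0.15, edgeR adjusted p = 0.00014), 1.27 in OVTOKO (SE 0.16), 0.71 in OVMANA (SE 0.16, edgeR adjusted p = 0.0098) and -0.96 in COV362 (SE 0.18, edgeR adjusted p = 0.0036). The last 2 were lost with DESeq2 (adjusted p = 0.24 and 0.15). OVKATE and COV504 stood at 0.34 and 0.35 and did not pass.

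VCL lay within 2.59-fold over the lines. OVTOKO had 316 CPM, SK-OV-3 264, COV362 198, OVKATE 153, COV504 130 and OVMANA 122, and IGROV-1 had 192 and 260 on the PromethION and 203 and 313 on the MinION. COV504, OVKATE and OVMANA were called lower by log2 -0.88, -0.86 and -0.83 (SE 0.27 each, edgeR adjusted p = 0.029, 0.027 and 0.045). These calls were weak: each was lost without MinION library 1 of IGROV-1 (edgeR adjusted p = 0.071, 0.065 and 0.095) and without MinION library 2 (edgeR adjusted p = 0.063, 0.055 and 0.086). With DESeq2 they were lost too (adjusted p = 0.16, 0.15 and 0.21). That of OVMANA was also lost without PromethION library 2 (edgeR adjusted p = 0.058), and without that library OVTOKO became higher (log2 0.8, edgeR adjusted p = 0.0057).

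**Figure D1:**
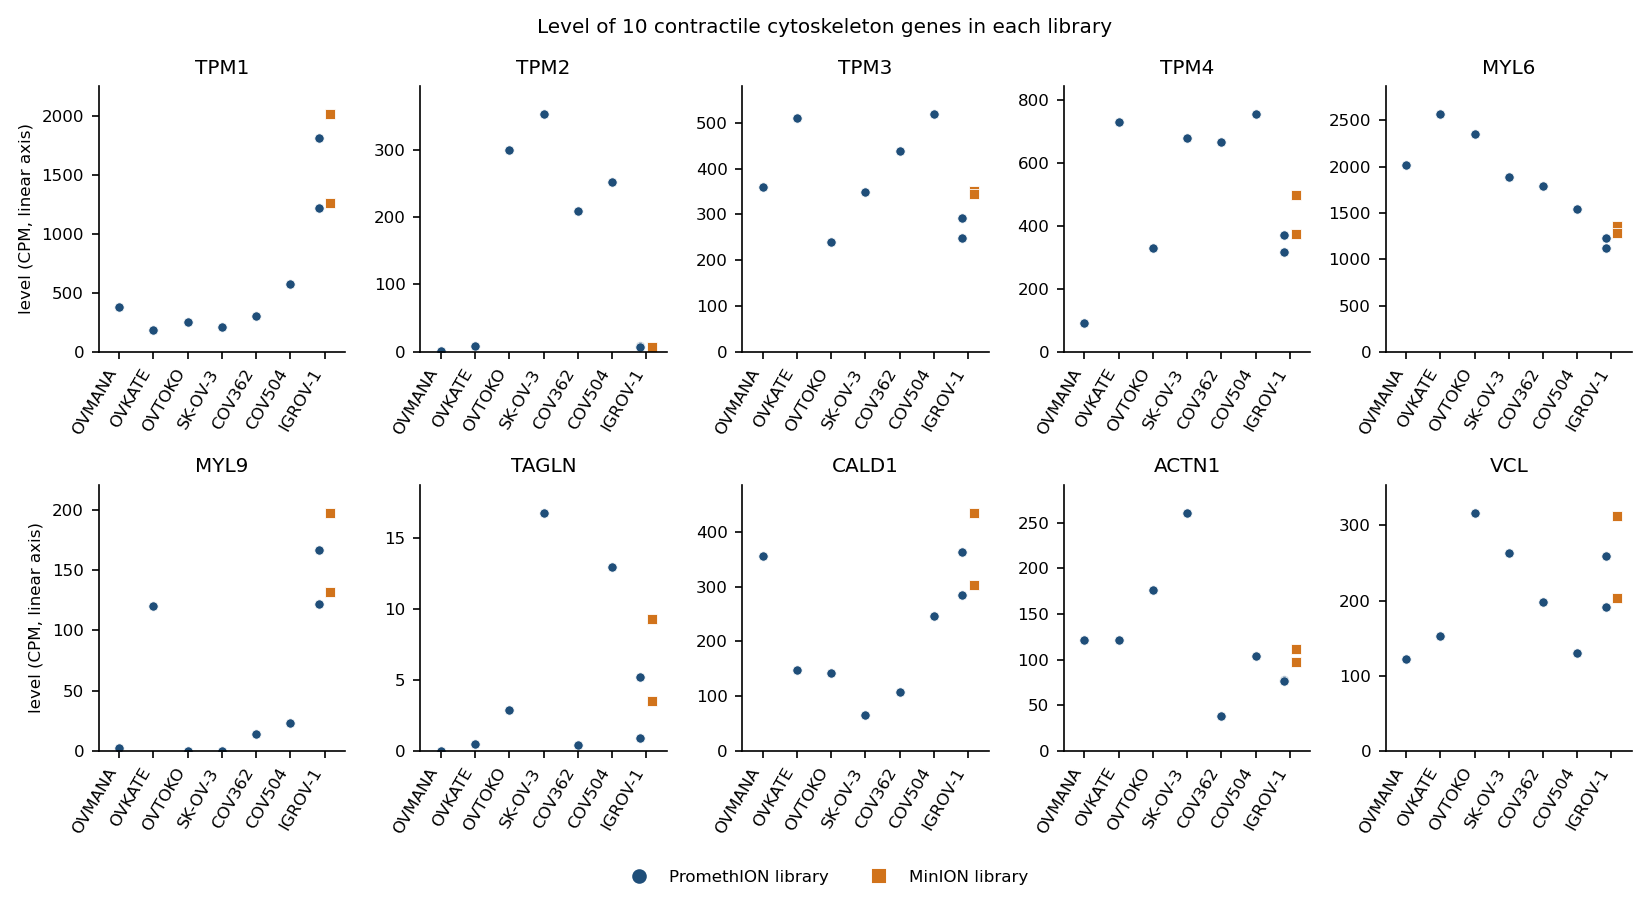
Level of each of the 10 genes in CPM (linear vertical axis from 0, scaled per gene) in each line; circles are PromethION libraries and squares MinION libraries, 1 point per library. TPM1 is at or above 1225 CPM in the 4 IGROV-1 libraries and at or below 574 CPM elsewhere, TPM2 is above 200 CPM in 4 lines and below 10 CPM in the rest, and MYL9 has no count in OVTOKO and SK-OV-3.

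Counted over the set, 7 of the 10 genes passed the test in OVMANA (2 higher, 5 lower), where 35.4% of all 13030 tested genes did (18.9% higher, 16.5% lower). In OVKATE 6 passed (3 higher, 3 lower), against 49.2% of all genes (26.8% and 22.4%). In OVTOKO 6 passed (3 and 3), against 34.1% (18.2% and 15.9%), and in SK-OV-3 7 (4 and 3), against 41.8% (22% and 19.8%). In COV362 8 passed (4 and 4), against 42.5% (23.7% and 18.8%), and in COV504 6 (3 and 3), against 43.5% (24% and 19.6%). All 10 genes passed the filter on low counts. The median log2 fold change of the 10 ran from -1.33 in OVMANA to 0.33 in COV504, and that of all genes from -0.01 to 0.04. Members of the set did not move together: TPM1, MYL9, CALD1 and VCL were called only lower, TPM3, MYL6 and TAGLN only higher, and TPM2, TPM4 and ACTN1 in both directions. All 6 comparisons share the IGROV-1 libraries. Of the 60 steps between neighbouring lines in the 10 orders of level, 10 passed the test. The orders follow CPM and the test uses TMM factors, so some uncalled neighbours stood the other way in the fit. In MYL6 and CALD1, for example, OVTOKO stood above OVKATE there (OVKATE minus OVTOKO, log2 -0.26 and -0.33).

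**Figure D2:**
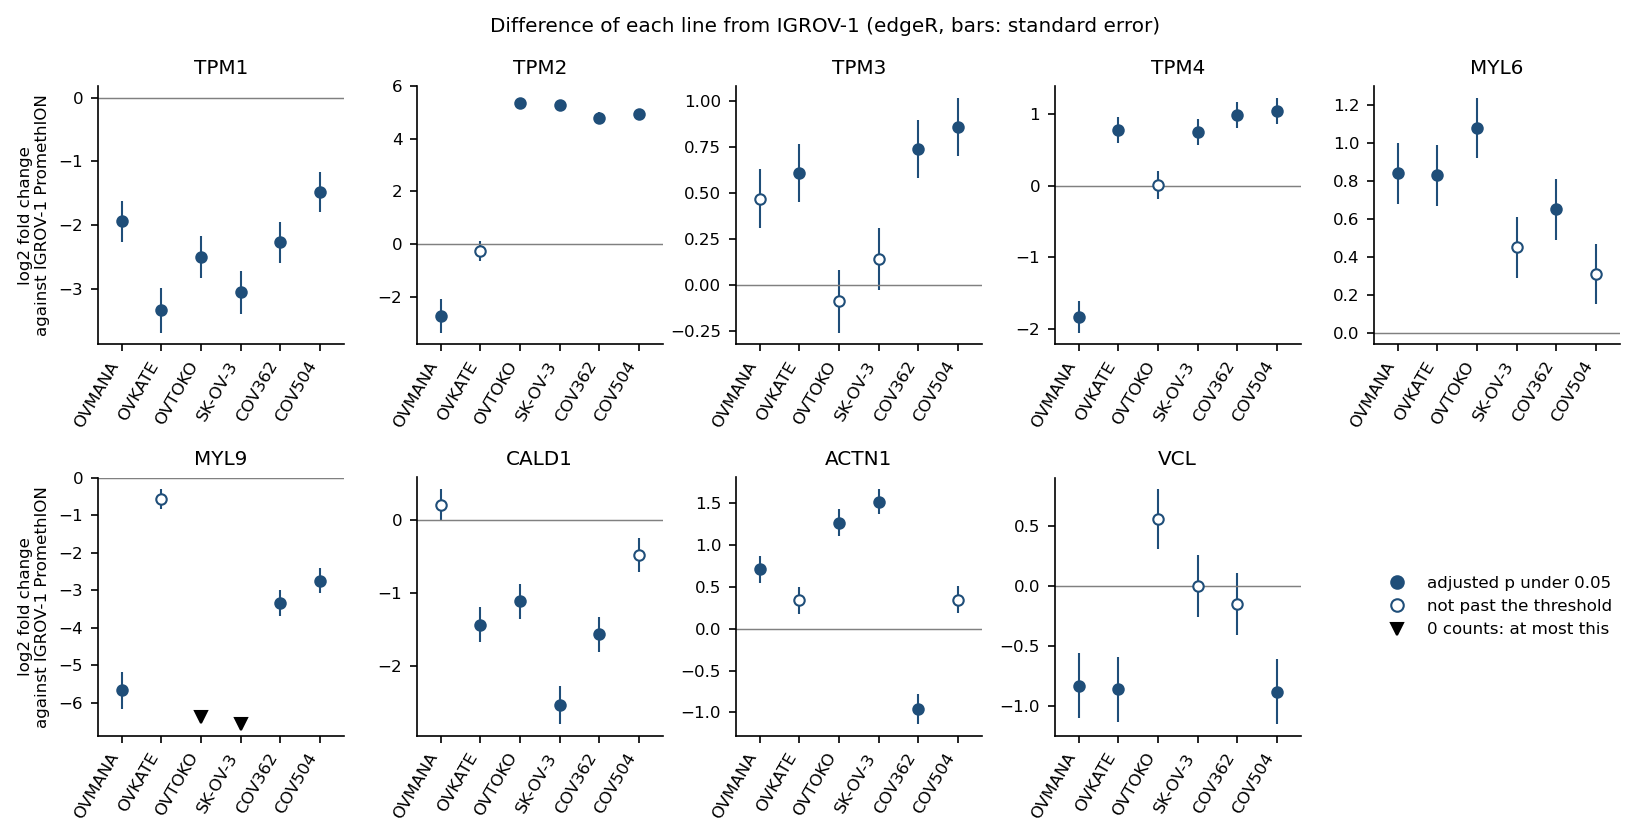
Log2 fold change of each line against IGROV-1 on the PromethION for 9 of the 10 genes (vertical axis, scaled per gene; TAGLN is left out for its low counts); bars are standard errors, filled points passed an adjusted p of 0.05, and triangles are upper limits for lines without a count. All 6 points of TPM1 lie below 0, from -1.48 to -3.34, and 4 points of TPM2 lie between 4.79 and 5.35.

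The 4 tropomyosin genes differed in which form they gave. Transcripts with an annotated protein of at least 270 residues were counted as long and those of 230 to 260 residues as short. TPM2 gave only long forms, its 4 annotated transcripts. TPM3 gave short forms in all libraries, with a long share of at most 0.3% (2 counts in SK-OV-3), and TPM3-212, of 248 residues, held 93.3% to 98.8% of its counts. TPM4 gave almost only its short transcript TPM4-201, also of 248 residues, at 97.6% to 100%.

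The long transcript of TPM4, TPM4-202, held 41.1 counts in COV504 (2.4%, 95% Wilson interval 1.8% to 3.3%), 33.5 in OVKATE (2.3%, 1.7% to 3.2%) and 22.1 in COV362 (1.3%, 0.9% to 2.0%), and at most 0.1 counts in each of the other 7 libraries. It stays below the 10% at which a transcript is named and was picked with its values known. The TPM4 transcript balance differed from IGROV-1 in these 3 lines (edgeR Simes adjusted p = 0.015, 0.012 and 0.044), and each of the 3 calls was lost whichever IGROV-1 library was left out, with adjusted p-values of 0.079 to 0.24 from edgeR. RefSeq (GRCh38.p14) places the start of this long form at a promoter with a CArG box, the site that serum response factor binds, and it is the stretch shown here, chr19:16067320-16067419 on the plus strand, with the box in capitals at -173 to -164 from the start.
TPM4 long-form promoter: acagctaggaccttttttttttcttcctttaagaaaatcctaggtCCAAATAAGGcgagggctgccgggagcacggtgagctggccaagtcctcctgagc
The box was searched on both strands in the 300 nt around each RefSeq start that was available, from 250 nt before it to 50 nt after. It was found in 2 of 18 promoters of the 10 genes, the other being 1 of 4 starts of ACTN1, and in 454 of 35116 promoters in all (1.29%). MYL9 and TAGLN had no entry among these promoters. TPM1 was searched only at its short-form start (chr15:63048239-63048538). The long-form starts of TPM1 and TPM3 were not among the promoters searched. A match of letters is no evidence of binding.

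TPM1 had the widest range in the share of long forms. The long share of its long and short counts was 90.6% and 91.4% in IGROV-1 on the PromethION (91.0% ± 0.6, SD, n = 2) and 88.4% and 90.1% on the MinION (89.2% ± 1.2, SD, n = 2). OVTOKO, at 95.7% (95% Wilson interval 93.3% to 97.2%), COV362, at 93.4%, and COV504, at 89.8%, lay close to these. OVMANA had 64.5% (60.9% to 68.0%), OVKATE 55.6% (50.4% to 60.5%) and SK-OV-3 43.0% (38.5% to 47.9%), and the intervals of these 3 lines lie below those of the 7 other libraries.

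The short side was almost wholly TPM1-208, of 248 residues. It held 55.3% of TPM1 counts in SK-OV-3, 43.0% in OVKATE and 35.2% in OVMANA, against 10% in COV504, 6.2% in COV362, 4.0% in OVTOKO, and 9.2%, 8.5%, 11.5% and 9.8% in the IGROV-1 libraries. Relative to the rest of the gene it was higher than in IGROV-1 by log2 1.86 in SK-OV-3, 1.6 in OVKATE and 1.39 in OVMANA (edgeR adjusted p = 1e-04, 0.00074 and 0.0029). At the gene, the TPM1 transcript balance passed in the same 3 lines (edgeR Simes adjusted p = 0.00034, 0.002 and 0.0087). The calls in SK-OV-3 and OVKATE were kept without any 1 of the IGROV-1 libraries, and that in OVMANA was lost without any 1 of them (edgeR adjusted p = 0.072 to 0.098).

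In CPM, the short forms stood at 134 in OVMANA, 122 in SK-OV-3 and 81.5 in OVKATE, against 115 and 156 in IGROV-1 on the PromethION. The MinION libraries of IGROV-1 had 146 and 198 CPM, so OVMANA and SK-OV-3 lay within the range of the 4 IGROV-1 libraries and OVKATE below it. The long forms of all 3 lines lay below every IGROV-1 library, at 242.9 CPM in OVMANA, 101.9 in OVKATE and 92.0 in SK-OV-3, against 1105.8 and 1650.7 CPM on the PromethION. OVTOKO, COV362 and COV504 were below IGROV-1 in both forms, with long forms at 241.9, 279.2 and 512.7 CPM and short forms at 10.7, 19.7 and 58.1 CPM. The levels of the separate forms were not tested.

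**Figure D3:**
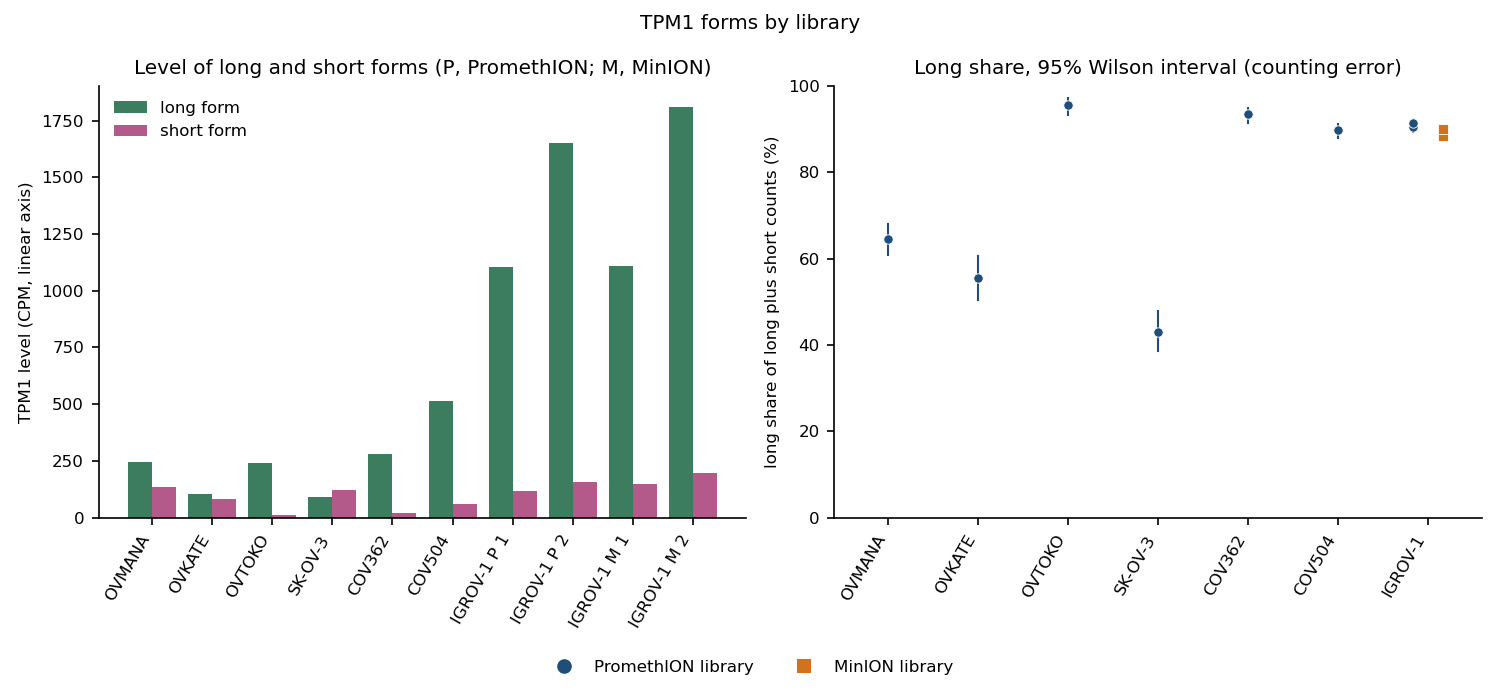
Left, level of TPM1 long (green) and short (purple) forms in CPM in each library (bars from 0; P is PromethION, M is MinION); right, long share of long plus short counts in percent, with 95% Wilson intervals for counting error. The long share is between 88.4% and 95.7% in 7 libraries and is 64.5%, 55.6% and 43.0% in OVMANA, OVKATE and SK-OV-3.

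Among the long forms of TPM1, 3 transcripts of 284 residues were named. TPM1-206, with the second copy of the 126-nt exon and the first of the 76-nt exon, held 59.2% of the gene in COV504, 45.7% in COV362, 44.0% in OVTOKO, 35% in OVMANA, 28.5% in OVKATE, 13.4% in SK-OV-3, and 50.4%, 50.3%, 51.3% and 47.9% in IGROV-1. In SK-OV-3 its relative use was lower than in IGROV-1 by log2 -1.3 (edgeR adjusted p = 0.039). TPM1-201, with the first copy of the 126-nt exon and the second of the 76-nt exon, held a steadier 25.3% (OVKATE) to 39.6% (COV362). TPM1-219, which joins the first copy of both, held 14.8% in OVTOKO, 3.7% to 6.2% in IGROV-1 and at most 1.0% elsewhere. The OVTOKO value did not pass (log2 1.21, edgeR adjusted p = 0.074). Its relative use was lower than in IGROV-1 in COV504 (log2 -2.42, edgeR adjusted p = 0.018) and COV362 (-2.8, edgeR adjusted p = 0.039), although the test over the whole gene did not pass there (edgeR Simes adjusted p = 0.051 and 0.09).

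Exon by exon, the estimated counts of transcripts that hold an exon were set over those of transcripts that span it. The first copy of the 126-nt exon was in 68.1% of the spanning TPM1 counts in SK-OV-3, 54.1% in OVTOKO and 47.3% in OVKATE. OVMANA had 43.7%, COV362 43.0% and COV504 31.6%. IGROV-1 had 43.3% and 43.9% on the PromethION and 41.3% and 46.4% on the MinION, so SK-OV-3 and COV504 lay on opposite sides of the replicates. The first copy of the 76-nt exon ranged less, from 56.3% in COV362 to 72.9% in OVKATE, with 64.0% and 64.4% in IGROV-1 on the PromethION and 69.0% and 64.2% on the MinION.

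In TPM2 the downstream copy of the 76-nt exon was in 2.6% of 517 counts in OVTOKO, 15.4% of 695 in SK-OV-3, 28.8% of 566 in COV504 and 41.5% of 533 in COV362. The main transcripts followed: TPM2-203, with the upstream copy, held 96.5%, 84.2%, 70.9% and 58.2% in the same order, and TPM2-201, with the downstream copy, 2.6%, 15.4%, 28.3% and 38.3%. Against IGROV-1, where the gene had 36 counts over both PromethION libraries, the balance passed only for COV362 (edgeR Simes adjusted p = 0.035), and that call was lost whichever IGROV-1 library was left out (edgeR adjusted p = 0.17 to 0.31). Differences in this balance among the 4 expressing lines themselves were not tested.

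The MYL6 stop-carrying exon was in 54.1% of 3720 counts in SK-OV-3. It was in 34.6% in COV504, 34.1% in OVKATE, 30.6% in COV362, 29.8% in OVMANA and 20.6% in OVTOKO. IGROV-1 had 16.0% and 19.8% on the PromethION and 13.2% and 16.1% on the MinION, so all 6 lines lay above all 4 libraries, OVTOKO by little. The exon changes the last residues of the protein and leaves a product of similar length: MYL6-218, with the exon, and MYL6-207, without it, are both annotated at 151 residues.

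MYL6-218 held 45.3% of the gene in SK-OV-3, 26.9% in OVKATE, 25.6% in COV504, 22.0% in OVMANA, 20.6% in COV362 and 13.0% in OVTOKO, against 8.4% and 11% in IGROV-1 on the PromethION and 9.5% and 10.8% on the MinION. MYL6-207 ran the other way, from 42.4% in SK-OV-3 to 77.8% in IGROV-1. The relative use of MYL6-218 was higher than in IGROV-1 by log2 1.55 in SK-OV-3 (edgeR adjusted p = 2e-06), 1.03 in OVKATE, 0.98 in COV504, 0.83 in OVMANA and 0.76 in COV362 (edgeR adjusted p = 0.012), and stood at 0.31 in OVTOKO. At the gene the balance passed in the first 5 lines (edgeR Simes adjusted p = 8.4e-06, 0.0012, 0.0031, 0.015 and 0.032). That of SK-OV-3 was kept in all 9 alternatives, and the other 4 were lost without IGROV-1 PromethION library 1 (edgeR adjusted p = 0.18 to 0.54) and without library 2 (0.053 to 0.21).

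In CALD1 the 78-nt exon was in 82.3% of counts in OVTOKO, 78.3% in SK-OV-3, 76.2% in COV362, 76% in OVMANA, 62.6% in OVKATE and 45.9% in COV504, with 71.6% and 70.3% in IGROV-1 on the PromethION and 78.4% and 75.2% on the MinION. COV504 was the low line. CALD1-203, which starts inside the gene at base 134891400 of chromosome 7 and holds the exon, had 41.7% there against 54.4% to 80.8% elsewhere, and CALD1-202, which starts farther upstream at base 134779678 and lacks it, had 45.7% against 12.4% to 32.5%. This balance did not pass in COV504 (edgeR Simes adjusted p = 0.21) but did with the gene-level F test (adjusted p = 0.044). CALD1-206, also without the exon, held 3.3% to 11.6%. CALD1-201, of 793 residues, has the length of the heavy caldesmon of smooth muscle. Picked with its values known, it held 0.5% to 4.9%, while the 3 others encode 532 to 558 residues.

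The remaining genes kept 1 dominant form. ACTN1-201, of 892 residues, held 94.6% (OVTOKO) to 99.9%. MYL9-201, of 172 residues, held 81.3% in OVKATE, 99.1% in COV504 and 87.6% to 90.3% in IGROV-1, the rest being MYL9-202, which skips a 162-nt exon and encodes 118 residues. No MYL9 share is given for lines below 50 counts, and TAGLN, with at most 33 counts, gets none. Metavinculin, VCL-201 of 1134 residues, held 13.0% of VCL counts in COV362, 10.7% in SK-OV-3, 7.8% in OVTOKO, 6.6% in COV504, 6.1% in OVMANA and 5.7% in OVKATE, beside 5.1% and 8.2% in IGROV-1 on the PromethION, with no call in any line.

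**Figure D4:**
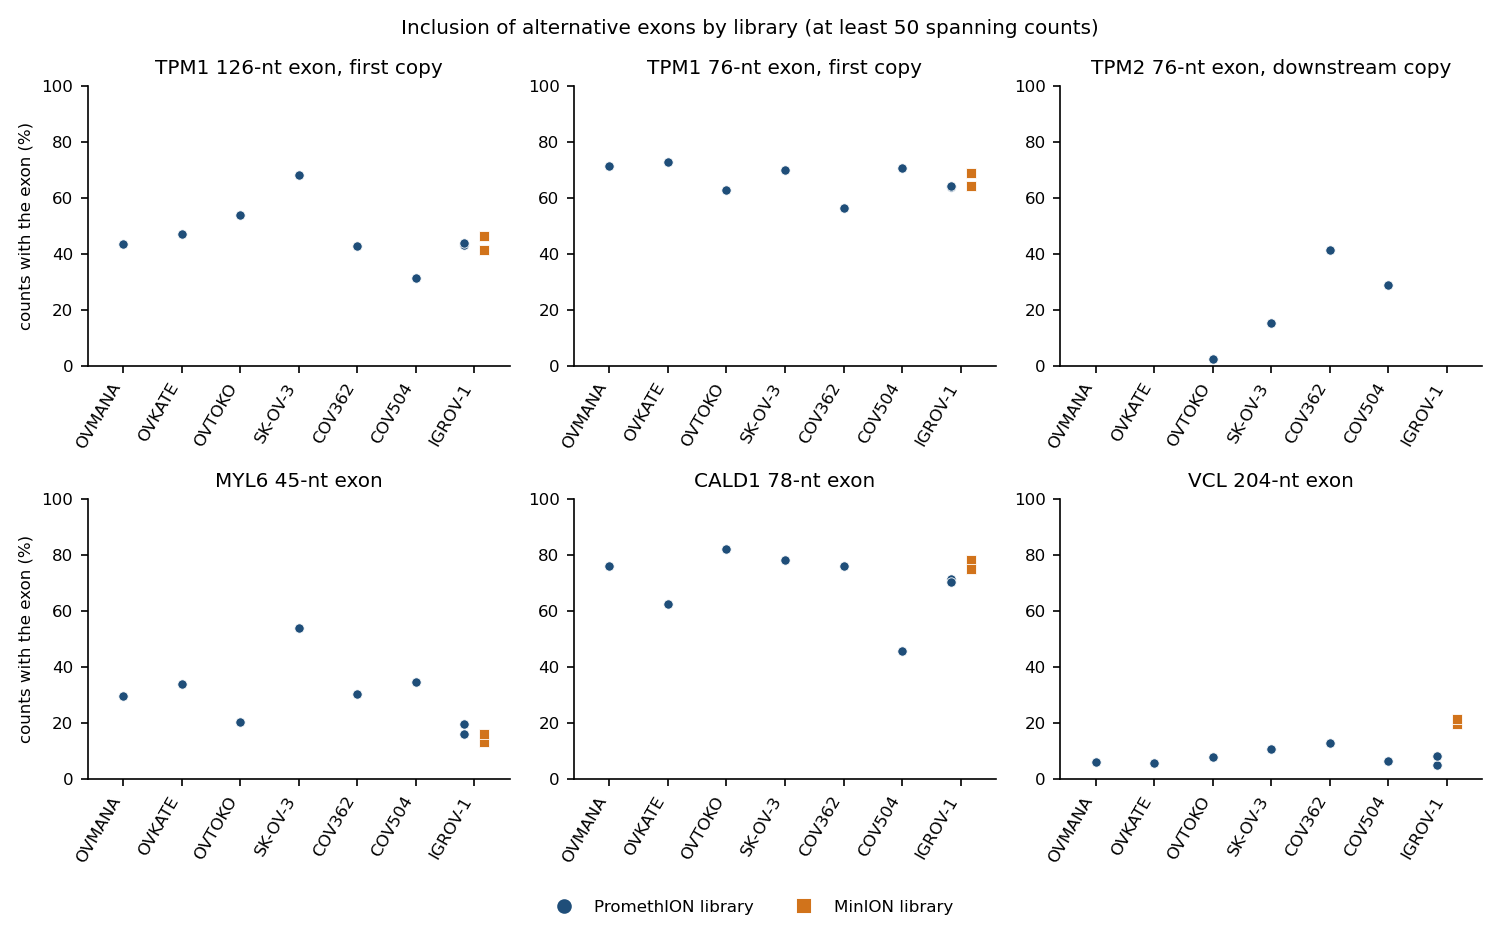
Share of spanning counts that hold each of 6 alternative exons (vertical axis, percent, 0 to 100) by line; circles are PromethION libraries, squares MinION libraries, and only libraries with at least 50 spanning counts are drawn. SK-OV-3 is highest for the first copy of the TPM1 126-nt exon (68.1%) and for the MYL6 exon (54.1%), and COV504 is lowest for CALD1 (45.9%). The VCL exon is at 19.7% and 21.5% in the MinION libraries and at most 13.0% in the PromethION libraries.

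By the count of genes whose transcript balance passed, OVMANA had 2 of 10 (MYL6 and TPM1), where 2.75% of 4730 tested genes passed, and OVKATE 3 (MYL6, TPM1 and TPM4) against 4.97%. SK-OV-3 had 2 (MYL6 and TPM1) against 2.07%, COV362 3 (MYL6, TPM2 and TPM4) against 2.98%, and COV504 2 (MYL6 and TPM4) against 2.56%. OVTOKO had 0 with edgeR's Simes test against 1.35%; there MYL6 and TPM1 had an unadjusted edgeR p under 0.05 (0.0016 and 0.0073), and the gene-level F test called MYL6 (adjusted p = 0.045). The genes were chosen with such results known, and a single call among 10 genes already exceeds each background, so nothing is read from these shares.

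The instruments were compared within IGROV-1. For levels edgeR called 0 of the 10 genes, where 0.817% of 10041 genes were called (0.11% higher, 0.707% lower), and DESeq2 called 0. Both fits take the libraries as unpaired. A fit with the library number as a block called some of the 10 genes and is given in the last paragraph. Before adjustment 2 of them were under 0.05 in edgeR, ACTN1 (log2 0.4, SE 0.13, edgeR adjusted p = 0.2) and TPM3 (log2 0.32, SE 0.13, edgeR adjusted p = 0.27). The transcript balance could be tested in 6 of the 10 genes and passed in 3, MYL6, VCL and TPM3, where 5.98% of 2979 genes passed.

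For VCL, metavinculin held 5.1% and 8.2% of counts on the PromethION (6.6% ± 2.2, SD, n = 2) and 19.7% and 21.5% on the MinION (20.6% ± 1.3, SD, n = 2), with a relative use higher by log2 1.09 (edgeR adjusted p = 0.033). The MinION pair also lay above the 6 other PromethION lines. VCL-201 and VCL-202 also end at different bases of chromosome 10 (74120160 and 74121363). A difference in the exon and one in the transcript end cannot be told apart in these shares. In MYL6 the main transcript with the 45-nt exon, MYL6-218, stood at log2 0.06 and was not called. The called differences sat in 2 minor transcripts of 152 residues, 1 without the exon and 1 with it. MYL6-201, without it, held 2.9% and 3.1% on the PromethION and 6.2% and 5.9% on the MinION. MYL6-202, with it, held 7.4% and 8.5% against 3.4% and 5.0%. In TPM3 the minor TPM3-208, of 232 residues, held 0.2% and 0.5% (1.3 and 2.9 counts) against 1.7% and 3.3% (21.2 and 37.0 counts). These 3 minor transcripts were picked with their values known.

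The edgeR Simes adjusted p was 0.028 for MYL6, 0.036 for VCL and 0.037 for TPM3. All 3 calls depended on the 4 libraries together: those of VCL and TPM3 were lost without any 1 of them (edgeR adjusted p = 0.085 to 0.25 and 0.076 to 0.54), and that of MYL6 was lost in 3 of the 4 cases (0.12 to 0.39), the exception being MinION library 2. Instrument and the library preparations run on it cannot be told apart.

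**Figure D5:**
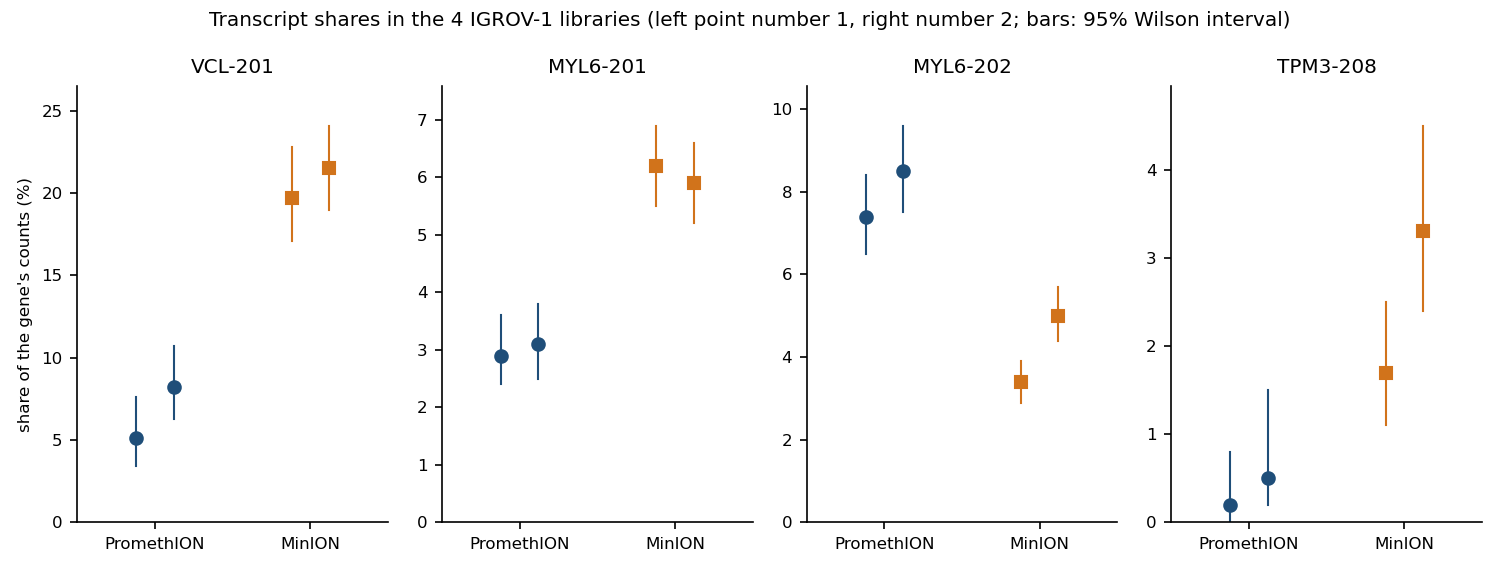
Share of the gene's counts (vertical axis, percent, from 0 and scaled per panel) of 4 transcripts in the IGROV-1 libraries, by instrument; bars are 95% Wilson intervals for counting error. VCL-201, MYL6-201 and TPM3-208 are higher and MYL6-202 lower in both MinION libraries than in both PromethION libraries.

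The IGROV-1 libraries also differed by their number. Library 2 was above library 1 on both instruments for TPM1 (by log2 0.57 on the PromethION and 0.68 on the MinION), VCL (0.44 and 0.62), MYL9 (0.44 and 0.57), CALD1 (0.35 and 0.51) and TPM4 (0.23 and 0.4). MYL6 and TPM3 stood at -0.12 and -0.08 and at -0.23 and -0.02. The summed level of the 5 epithelial markers moved with this, from 410 to 1223 CPM on the PromethION and from 404 to 1270 CPM on the MinION, and EPCAM and CDH1 stayed at or near 0. Its part in the result was not tested. TAGLN was also higher in library 2 (12 against 2 counts and 30 against 13). This spread enters every test above.

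Genes of the same pathways were counted from 4 lists, beside a background over all 13030 genes of 18.2% to 26.8% higher and 15.9% to 22.4% lower, depending on the line. Of 14 tested actomyosin genes, 2 to 6 were higher and 1 to 4 lower than in IGROV-1 depending on the line, and of 19 genes of actin binding and adhesion, 2 to 11 were higher and 4 to 9 lower. Of 11 genes around serum response factor and its MRTF cofactors, 3 to 6 were higher and 1 to 4 lower, and of 10 splicing regulators 0 to 4 and 1 to 4. The median log2 fold change of the serum response factor list ran from -0.98 in OVMANA to 2.88 in COV504. It includes genes under the floor of 3 counts, such as CCN2 and TGFB1I1 in IGROV-1 (0.214 and 0.215 CPM). Medians of the other lists stayed between -0.54 and 0.66.

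The genes with the widest range in the actomyosin list were MYLK, the myosin light chain kinase (1.48 CPM in OVKATE to 140 in OVTOKO), MYH14, a nonmuscle myosin heavy chain (0 in OVTOKO and COV362 to 50.9 in OVKATE), and ACTA2, smooth-muscle actin (0 in OVKATE to 27.7 in OVTOKO). Among actin-binding genes they were TRIP6, an adhesion adaptor (0 in OVTOKO to 248 CPM in OVKATE), PDLIM1, a partner of alpha-actinin (14.5 in OVTOKO to 400 in COV362), and TMOD1, which caps filament ends beside tropomyosin (5.14 in IGROV-1 to 133 in SK-OV-3, higher than in IGROV-1 in 6 of 6 lines). Among serum response factor targets they were FHL2 (0.534 in OVMANA to 417 in SK-OV-3), CCN2 (0.214 in IGROV-1 to 299 in OVKATE) and ANKRD1 (0 in SK-OV-3 to 200 in OVMANA).

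Among the splicing regulators the widest were ESRP1, ESRP2 and MBNL2. The epithelial regulator ESRP1 had 87.1 CPM in OVMANA, 84.1 in OVKATE, 24.9 in COV504, 5.09 in COV362 and no count in OVTOKO, SK-OV-3 or IGROV-1. ESRP2 ran from 0 in OVTOKO to 25.7 CPM in OVKATE, and MBNL2 from 4.27 in OVMANA to 96.9 in OVKATE. PTBP1, a regulator of tropomyosin exons, had 280 CPM in IGROV-1 and 120 to 181 in the 6 other lines, and QKI had 217 CPM in SK-OV-3 and 32.6 to 159 in the others; both were chosen with their values known.

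By likeness of pattern over the 7 lines (Pearson r of log2 of CPM plus 1, the highest of 8813 genes, as a description), TPM1 was closest to MGEA5 (0.987), NUAK1 (0.939) and DHX33 (0.928). TPM2 was closest to APRT (0.975), PPARG (0.954) and PHLDA1 (0.952), TPM3 to PPL (0.99), EMC4 (0.967) and SORT1 (0.965), and TPM4 to SH3KBP1 (0.978), KCTD3 (0.974) and TEX10 (0.973). MYL6 was closest to OGFRL1 (0.958), MYL9 to ANK3 (0.984), CALD1 to CAPZA2 (0.976), ACTN1 to FAM50A (0.986) and VCL to AP1M1 (0.967), while TAGLN was under the 10 CPM this rule asks for.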

How the data were processed

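The authors deposited, for each of the 10 libraries, an estimated count per transcript and a value named TPM, which equalled CPM (count over library total) within 5.6e-11 and is therefore not divided by length. Alignment used minimap2 2.24-r1122 to GRCh38, per the submitters' processing notes. Quantifier, settings and annotation release: not given in the sources used here. Of the 62 transcripts, 54 had the same position in GENCODE 29, which supplied exons and protein lengths.

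Counts were summed per gene, rounded and tested with edgeR 4.0.16 (R 4.3.3; quasi-likelihood, TMM, default filter, two-sided, Benjamini-Hochberg over all genes, threshold 0.05). Lines were compared in a fit of 10 libraries, whose 2 residual degrees of freedom come from IGROV-1, and instruments in a fit of the 4 IGROV-1 libraries. The coefficient of variation was 11.7%. Transcript balance was tested with diffSpliceDGE and a Simes p per gene. DESeq2 1.42.0 was an alternative. Shares carry 95% Wilson intervals. Exon inclusion was summed from the estimated transcript counts and is no separate reading of the exon. Replicates differed by more than counting noise (chi-square per degree of freedom 4.36 and 6.73). Tested on simulated data with 200 changed genes, level changes of log2 1 and 2 were recovered for 41.5% and 95.5% of the changed genes in the line comparison (11905 and 11910 genes tested) and 77.5% and 95.5% between instruments (10008 and 10010 tested). Usage changes of log2 2 were recovered for 71.5% (line, 3778 tested) and 89.5% (instruments, 2966 tested). False calls made up 0.6% to 5.5% of the calls. Apart from the changed genes, all simulated libraries shared the same means, with a fixed spread. In the real line comparisons 34.1% to 49.2% of genes were called, so these rates may not carry over.

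The 10 genes and all lists were chosen with earlier results of these data known. All 10 are described. Transcripts are named at 10% of a gene with at least 50 counts, exons at a 10-point range of inclusion, list genes as the 3 widest among those called, and similar genes as the 3 with the highest correlation. Strand use in counting is not stated, so reads of overlapping or antisense genes and near-identical pseudogenes, which tropomyosins and light chains have, cannot be told apart.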

Additional observations from a re-analysis of the deposited data

How the results depend on the processing

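With DESeq2 the count of genes called in level fell from 7 to 4 in OVMANA; the cause was not tested. Over all genes DESeq2 called 1464, 2117, 1329, 1691, 1585 and 1769 in the order OVMANA, OVKATE, OVTOKO, SK-OV-3, then COV362, COV504, where edgeR called 4613, 6405, 4443, 5446, 5544 and 5672. All other counts of levels against IGROV-1 stayed within 1.5 times the main count under every alternative that was run. Counts of transcript balance moved more. With the 8 PromethION libraries only, 1 gene each passed in OVMANA, COV362 and COV504 instead of 2, 3 and 2, where the fit has fewer samples. With the gene-level F test, 1 passed in OVTOKO instead of 0 and 4 in COV504 instead of 2; the cause was not tested. Leaving out 1 IGROV-1 library gave 0 to 1 in OVMANA, 1 to 2 in OVKATE, 0 to 1 in COV362, 0 to 1 in COV504 and 0 to 1 between instruments, with 2 throughout in SK-OV-3 and 0 in OVTOKO. Over all genes, balance was called for 64 to 235 genes in the 6 lines, 219 to 508 with the F test, 19 to 91 with PromethION libraries only and 13 to 71 without 1 IGROV-1 library; between instruments 178 became 358 with the F test and 38 to 61 without 1 library, and levels 82 became 15 with no filter, 49 in the fit of all 10 libraries and 4 to 209 without 1 library. Small uncalled differences changed sign when 1 IGROV-1 library was left out. As log2 fold changes over these fits, the instrument difference ran from -0.09 to 0.34 for CALD1 (-0.03 without PromethION library 1), -0.12 to 0.38 for MYL9 (-0.07), -0.26 to 0.37 for TPM1 (-0.2) and -0.15 to 0.39 for VCL (-0.07), and that of OVTOKO from -0.75 to 1.78 for TAGLN, -0.1 to 0.14 for TPM4 and -0.2 to 0.03 for TPM3. VCL in COV362 ran from -0.36 to 0.09. The long share of TPM1 in COV362 was 91.0% as a share of all counts of the gene, and the long TPM4 form, whose transcript has weaker annotation support, drops out if only the best supported transcripts are kept.

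IGROV-1 libraries share the numbers 1 and 2 across instruments, and the labels do not say that a number marks a shared culture. The deviations of same-numbered libraries correlated at 0.42 across 8717 genes. With the replicate block, levels between instruments were called for 3 genes instead of 0 (ACTN1, TPM3 and TPM4, at log2 0.4, 0.32 and 0.29) and for 1979 of all 10041 genes instead of 82, and transcript balance again for 3 genes. The depth of a library limits shares of TAGLN, MYL9 and TPM2 in lines with few counts.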
